A study of Mus musculus with 16 samples.

Results

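MHC class I molecules display short peptides from inside a cell to CD8 T cells, and each one is a heavy chain paired with beta-2-microglobulin, the invariant light chain encoded by B2m. In the mouse the classical heavy chains H2-K1 and H2-D1 carry most of this display, while the heavy chains of the Q, T and M regions are called non-classical and serve narrower tasks. Nlrc5 is a transcriptional coactivator of the NOD-like receptor family that is recruited to the promoters of class I genes, and interferon-gamma (IFNγ) is a known inducer of Nlrc5 and of the class I genes themselves. The genes described here are the 8 heavy chains H2-K1, H2-D1, H2-Q4, H2-Q6, H2-Q7, H2-T22, H2-T23 and H2-M3 together with B2m and Nlrc5. They were chosen by gene name, and all 10 were found in both count tables, of 55414 genes in one and 56980 in the other.

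RNA sequencing was done on KPC1199, a mouse pancreatic ductal adenocarcinoma line from a tumour of a KPC animal, in which Pdx-cre switches on mutant tumour genes, Trp53 among them, in the pancreas. All groups carried these alleles and a lentiviral CRISPR vector selected with puromycin, with either the control guide (sgCtrL) or guide 1 against Sin3b (Sin3Bsg1), a scaffold of a histone deacetylase corepressor complex. The cells were edited with 1 guide, and the sources used here do not say whether they were a pool or a clone. Effects particular to the guide or to a clone cannot be told apart from loss of Sin3b. In the untreated experiment each genotype had 2 libraries. In the IFNγ experiment each genotype had 3 libraries without IFNγ and 3 after 24 h with 10 ng/ml IFNγ. Nothing in the labels says that replicates came from separate cultures, so p-values measure the spread between these libraries, which may be technical.

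Libraries held 18128055 to 32311721 estimated counts. Sin3b itself was lower in every Sin3Bsg1 library, at 34.1 and 36.5 CPM (counts scaled to library size) against 83.4 and 88.6 CPM in the untreated experiment, and at 39.1 ± 0.412 against 92.4 ± 3.61 CPM (SD, n = 3) without IFNγ. Ductal and epithelial markers were present in all libraries (6 of 6 genes), whereas 6 of 7 leukocyte markers were at or under 3 counts in each group, with Cd3e and Adgre1 at 0 in every library. The 2 experiments were deposited as separate tables, so levels set across them below carry no test. Replicate 1 of sgCtrL with IFNγ stood apart from its 2 partners (mean chi-square per gene 22.3 and 18.6, against 4.05 between the partners), and results that turn on a single library are given with the value without it.

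Where the heavy chains lie matters for how their reads can be counted. In GRCm39 with the GENCODE annotation, H2-K1 spans chr17:34214987-34219321 on the minus strand, H2-D1 chr17:35481691-35486475 and H2-Q4 chr17:35598586-35604274 on the plus strand, and H2-T23 chr17:36340229-36345571 on the minus strand. All 8 heavy chains lie on chromosome 17, B2m at chr2:121977957-121983594 and Nlrc5 at chr8:95160984-95253900. Of all 100-base windows in its annotated transcripts, H2-K1 shared 2.03% with another gene, H2-D1 2.53%, H2-T23 2.57%, H2-T22 6.74% (mostly H2-T10), H2-Q4 8.13% (mostly H2-Q10), H2-Q6 9.05% (mostly H2-Q7) and H2-Q7 9.85%. H2-M3, B2m and Nlrc5 shared none. In windows of 150 bases the shared part was 0.124% for H2-K1, 0.643% for H2-D1, 0.188% for H2-T23 and 0.258% for H2-T22. It was 5.05% for H2-Q4, 2.97% for H2-Q6 and 4.18% for H2-Q7. Fractional counts, as produced when a read is divided between places, appeared in all 12 libraries of the IFNγ experiment for H2-Q7, H2-T22 and H2-T23, in 11 for H2-Q4, 9 for H2-D1 and 6 for H2-K1, and in none for H2-M3, B2m or Nlrc5. In the untreated experiment they appeared in all 4 libraries for H2-K1, H2-D1, H2-Q4, H2-Q7, H2-T22 and H2-T23, and in 1 for H2-M3. Values for the heavy chains, the classical ones included, are therefore uncertain. Identical windows of 100 or 150 bases do not bound by how much. Every member also overlaps another annotated gene (for B2m it is Patl2 on the opposite strand, for H2-M3 the same-strand Gm20429), and the strand setting of the counting is not given in the sources used here.

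The promoters of B2m and of the 4 heavy chains that were higher in Sin3Bsg1 in every setting below are shown. The heavy chains were picked by that genotype result in these same data. All 5 genes rose with IFNγ, which does not set them apart, since all 9 members tested rose. Sequences are the 250 bases before the RefSeq start (for H2-K1 the first of 2 listed), from GRCm38.p6, written 5′ to 3′ in the direction of transcription. Capitals mark the interferon regulatory factor motif AANNGAAA in either direction and, further upstream in 3 of the 5, the kappa B motif GGGNNTTCC. Both strands were searched, and the marked matches do not overlap. The windows are chr17:34000348-34000597 (minus strand) for H2-K1, chr17:35262844-35263093 (plus) for H2-D1, chr17:35379367-35379616 (plus) for H2-Q4, chr17:36032702-36032951 (minus) for H2-T23 and chr2:122147437-122147686 (plus) for B2m.
H2-K1: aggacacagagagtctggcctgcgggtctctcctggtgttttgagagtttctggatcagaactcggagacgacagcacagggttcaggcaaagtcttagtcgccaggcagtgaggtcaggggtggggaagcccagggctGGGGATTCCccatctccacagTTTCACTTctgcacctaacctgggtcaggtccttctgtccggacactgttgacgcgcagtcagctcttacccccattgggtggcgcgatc
H2-D1: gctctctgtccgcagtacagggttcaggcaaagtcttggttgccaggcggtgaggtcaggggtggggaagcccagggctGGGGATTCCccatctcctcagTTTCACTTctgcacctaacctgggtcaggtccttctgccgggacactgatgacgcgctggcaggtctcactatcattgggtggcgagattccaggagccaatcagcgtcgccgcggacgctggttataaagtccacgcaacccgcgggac
H2-Q4: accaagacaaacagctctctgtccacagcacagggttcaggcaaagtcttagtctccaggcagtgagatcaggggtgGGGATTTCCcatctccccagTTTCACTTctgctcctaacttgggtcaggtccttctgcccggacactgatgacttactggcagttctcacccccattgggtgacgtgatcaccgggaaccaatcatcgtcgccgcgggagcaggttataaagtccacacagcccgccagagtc
H2-T23: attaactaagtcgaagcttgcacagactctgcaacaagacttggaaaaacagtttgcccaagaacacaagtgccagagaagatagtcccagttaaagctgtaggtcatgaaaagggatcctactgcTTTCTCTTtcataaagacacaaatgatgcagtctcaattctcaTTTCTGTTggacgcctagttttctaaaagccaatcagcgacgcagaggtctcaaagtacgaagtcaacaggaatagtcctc
B2m: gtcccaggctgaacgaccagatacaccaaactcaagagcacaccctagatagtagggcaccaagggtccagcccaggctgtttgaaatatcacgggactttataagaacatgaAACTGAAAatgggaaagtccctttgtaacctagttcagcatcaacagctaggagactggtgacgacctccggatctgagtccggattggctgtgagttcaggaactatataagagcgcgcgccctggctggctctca

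The interferon regulatory factor motif was present in 9 of the 9 members that have an entry in the promoter table, against 21.3% of all 32851 promoters of this length. In H2-K1, H2-D1, H2-Q4, H2-Q6, H2-Q7, H2-T22 and H2-M3 it read tttcactt, whereas H2-T23 carried the variants tttctctt and tttctgtt, and B2m held aactgaaa on the strand printed. In H2-K1 it lay 90 to 83 bases before the start, and the kappa B match 111 to 103 bases before it. The kappa B motif was found in 5 of 9 members (H2-K1, H2-D1, H2-Q4, H2-Q6 and H2-Q7) and in 4.98% of all promoters. CCAAT, on either strand, occurred in 9 of 9 members and 33.8% of all promoters, and TGACG in 7 of 9 and 17.8%. The heavy chains are paralogs with related promoters, so these are not independent occurrences, and a match describes letters and not a bound site.

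Per length, B2m was the most abundant member in every group. It was nearest to the next member in untreated Sin3Bsg1, with 214 TPM against 143 TPM of H2-D1. Without IFNγ, sgCtrL cells had 354 ± 8.62 TPM (transcripts scaled for gene length and library, SD, n = 3) of B2m, 86.1 ± 2.83 of H2-D1, 38.0 ± 0.989 of H2-T22, 19.0 ± 0.811 of H2-K1, 18.3 ± 1.09 of H2-T23, 7.29 ± 0.356 of H2-M3, 3.40 ± 0.192 of H2-Q4, 0.821 ± 0.354 of H2-Q7 and 0.565 ± 0.101 of Nlrc5. Neighbours in this order did not overlap, except H2-K1 with H2-T23 and H2-Q7 with Nlrc5. In sgCtrL cells the non-classical T22 transcript was thus above the classical H2-K1 transcript. H2-Q6 had 0 counts in all 6 libraries without IFNγ in the IFNγ experiment and 5 counts at most in any library, and it was not tested in either experiment.

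With IFNγ the order changed. In sgCtrL, B2m reached 3793 ± 237 TPM (n = 3), H2-D1 1117 ± 24.4, H2-K1 756 ± 27.7, H2-T23 341 ± 10.8, H2-T22 242 ± 24.7 and H2-Q4 181 ± 9.93 TPM. H2-M3 reached 45.6 ± 2.98 TPM, Nlrc5 27.7 ± 4.72 and H2-Q7 2.29 ± 0.259 TPM, and no neighbours in this order overlapped. H2-K1 passed H2-T22 and no longer overlapped H2-T23, and H2-Q4 passed H2-M3. In Sin3Bsg1, H2-K1 passed H2-T22 as well, from 41.6 ± 1.09 TPM of H2-T22 above 36.8 ± 2.06 of H2-K1 without IFNγ to 933 ± 14.0 TPM of H2-K1 above 467 ± 13.4 of H2-T23 and 281 ± 3.40 of H2-T22 with it. H2-Q4 and H2-M3 overlapped in Sin3Bsg1 without IFNγ, at 8.67 ± 0.883 and 9.34 ± 1.94 TPM. In the separate untreated experiment the genotypes differed in this order (n = 2 each), with H2-T22 (35.9 TPM) above H2-K1 (29.0) and H2-T23 (21.2) in sgCtrL, and H2-K1 (42.9) above H2-T23 (37.8) and H2-T22 (35.3) in Sin3Bsg1.

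**Figure D1:**
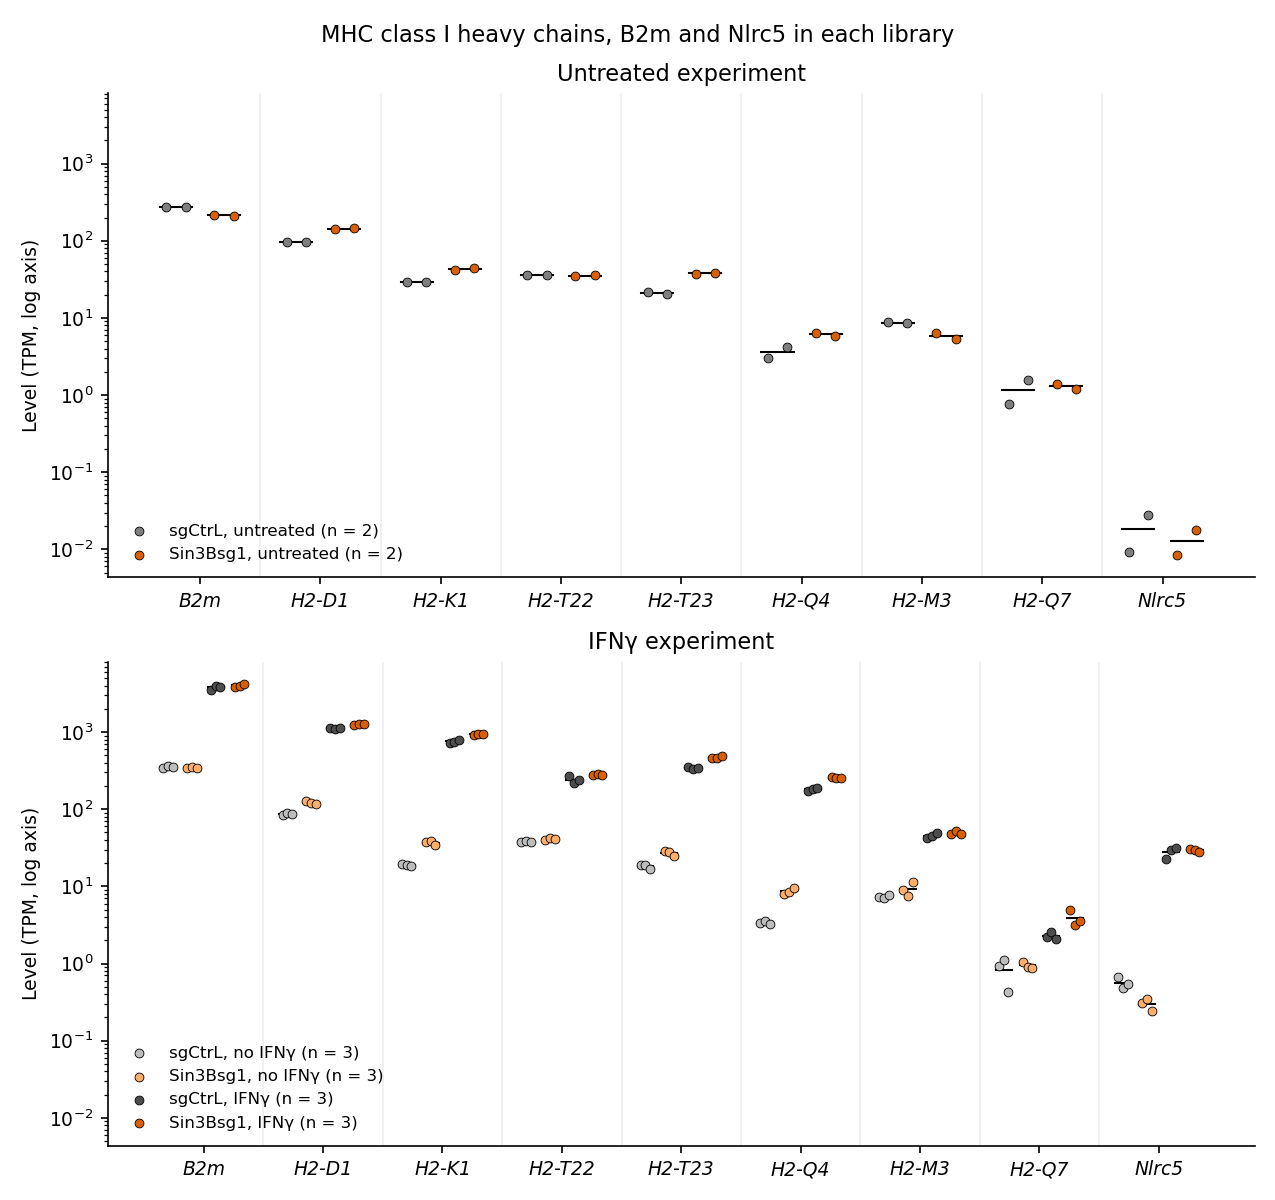
Level of 9 members in every library, in TPM on a log axis, with the untreated experiment and the IFNγ experiment in separate panels; points are libraries coloured by group and the horizontal line is the group mean. H2-Q6, with 5 counts at most, is left out; H2-K1 rises from 19.0 TPM in sgCtrL without IFNγ to 756 with IFNγ, and Nlrc5 from 0.565 to 27.7.

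The first comparison asked whether class I transcripts differed between genotypes at rest. In the untreated experiment, 4 of the 10 members rose in Sin3Bsg1 (H2-K1, H2-D1, H2-Q4 and H2-T23), 2 fell (H2-M3 and B2m), 2 did not pass the test (H2-T22 and H2-Q7) and 2 had too few counts to test (H2-Q6 and Nlrc5). Of the 14589 genes tested, 31.1% were called, 15.1% higher and 16.0% lower, at an adjusted p under 0.05 in edgeR's quasi-likelihood test. The median log2 difference was 0.355 over the 8 members tested and 0.00243 over all genes tested. Fewer cells of a kind and less RNA per cell cannot be told apart in such bulk libraries.

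Among the classical heavy chains, H2-K1 stood at 22.9 and 22.8 CPM in sgCtrL and at 33.1 and 34.7 CPM in Sin3Bsg1. H2-D1 stood at 82.3 and 80.8 CPM in sgCtrL and at 121 and 122 CPM in Sin3Bsg1. The libraries of the 2 genotypes did not overlap for either gene, and the log2 differences were close to each other, 0.57 (SE 0.066) and 0.58 (SE 0.034), with adjusted p of 5.52e-06 and 2.06e-09 in edgeR. The non-classical H2-T23, which encodes the Qa-1 molecule that presents leader peptides to NKG2A receptors, went from 15.7 and 14.7 CPM to 26.7 and 27.5 CPM, a log2 difference of 0.84 (SE 0.078, edgeR adjusted p = 4.2e-07). H2-Q4 was scarce, at 2.62 and 3.67 CPM against 5.64 and 5.02 CPM. Its log2 difference of 0.76 (SE 0.19, edgeR adjusted p = 0.00587) was 0.54 without replicate 1 of sgCtrL and no longer passed (adjusted p = 0.0592 in edgeR, up to that value over all alternatives).

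H2-T22 did not pass, at 31.0 and 30.5 CPM against 29.8 and 30.8 CPM, with overlapping libraries and a 95% interval of the log2 difference from -0.16 to 0.11. H2-M3, which presents N-formylated peptides, went the other way. It was at 6.02 to 6.18 CPM in sgCtrL and 3.72 to 4.51 CPM in Sin3Bsg1, a log2 difference of -0.57 (SE 0.16, edgeR adjusted p = 0.0123), and it no longer passed without replicate 2 of Sin3Bsg1 (-0.43, adjusted p = 0.0982). The light chain was lower as well. B2m had 115 and 113 CPM in sgCtrL and 90.7 and 88.5 CPM in Sin3Bsg1, a log2 difference of -0.35 (SE 0.035, edgeR adjusted p = 8.23e-07).

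Nlrc5 was at the limit of detection in this experiment, with 1 and 3 counts in sgCtrL and 1 and 2 in Sin3Bsg1 among 29683181 to 32311721 counts per library, so no fold is given. In the separately deposited IFNγ experiment, cells without IFNγ had 35 to 43 Nlrc5 counts in sgCtrL libraries of 18128055 to 23512000 counts. The level of Nlrc5 was not tested between the tables.

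Cells without IFNγ in the second experiment allowed the same question to be asked again. Here 4 of 10 members rose in Sin3Bsg1, again H2-K1, H2-D1, H2-Q4 and H2-T23, 1 fell (Nlrc5), 4 did not pass (H2-Q7, H2-T22, H2-M3 and B2m) and H2-Q6 was not tested. Of 14913 genes tested, 17.2% were called, 7.89% higher and 9.33% lower. The median log2 difference was 0.339 over the 9 members tested and -0.00904 over all genes.

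H2-K1 was at 14.5, 14.4 and 13.4 CPM in sgCtrL and at 27.6, 28.0 and 24.98 CPM in Sin3Bsg1, a 1.91-fold difference (log2 0.93, SE 0.064, edgeR adjusted p = 6.3e-08). H2-Q4 was at 2.75, 2.96 and 2.62 CPM against 6.40, 6.87 and 7.74 CPM, a 2.50-fold difference (log2 1.32, SE 0.11, edgeR adjusted p = 3.62e-07). These were the 2 largest differences among the members tested here, and the genotypes were far apart in both. H2-D1 differed by less, at 65.7, 71.6 and 68.4 CPM against 99.4, 95.5 and 92.3 CPM (log2 0.48, SE 0.050, edgeR adjusted p = 5.63e-06). H2-T23 was at 12.6, 12.9 and 11.4 CPM against 19.1, 18.6 and 16.5 CPM (log2 0.56, SE 0.074, edgeR adjusted p = 6.29e-05).

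B2m did not pass here. It was at 134, 144 and 139 CPM in sgCtrL and 133, 136 and 133 CPM in Sin3Bsg1, with a 95% interval of the log2 difference from -0.18 to 0.074. H2-T22 was higher in every Sin3Bsg1 library than in any sgCtrL library (29.9 to 31.8 against 32.3 to 33.9 CPM), but its log2 difference of 0.11 did not pass (edgeR adjusted p = 0.325). H2-M3, lower in Sin3Bsg1 in the untreated experiment, had a log2 difference of 0.34 here (SE 0.13, edgeR adjusted p = 0.102), which passed without replicate 2 of Sin3Bsg1 (0.46, adjusted p = 0.0258). Nlrc5 had 43, 40 and 35 counts in sgCtrL and 28, 27 and 19 in Sin3Bsg1, or 2.32, 1.67 and 1.87 against 1.07, 1.17 and 0.817 CPM. The log2 difference was -0.92 (SE 0.28, edgeR adjusted p = 0.0347). Leaving out 1 library gave values from -1.03 to -0.78 with adjusted p from 0.00104 to 0.129, and the call was lost in 8 of the 12 cases.

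**Figure D2:**
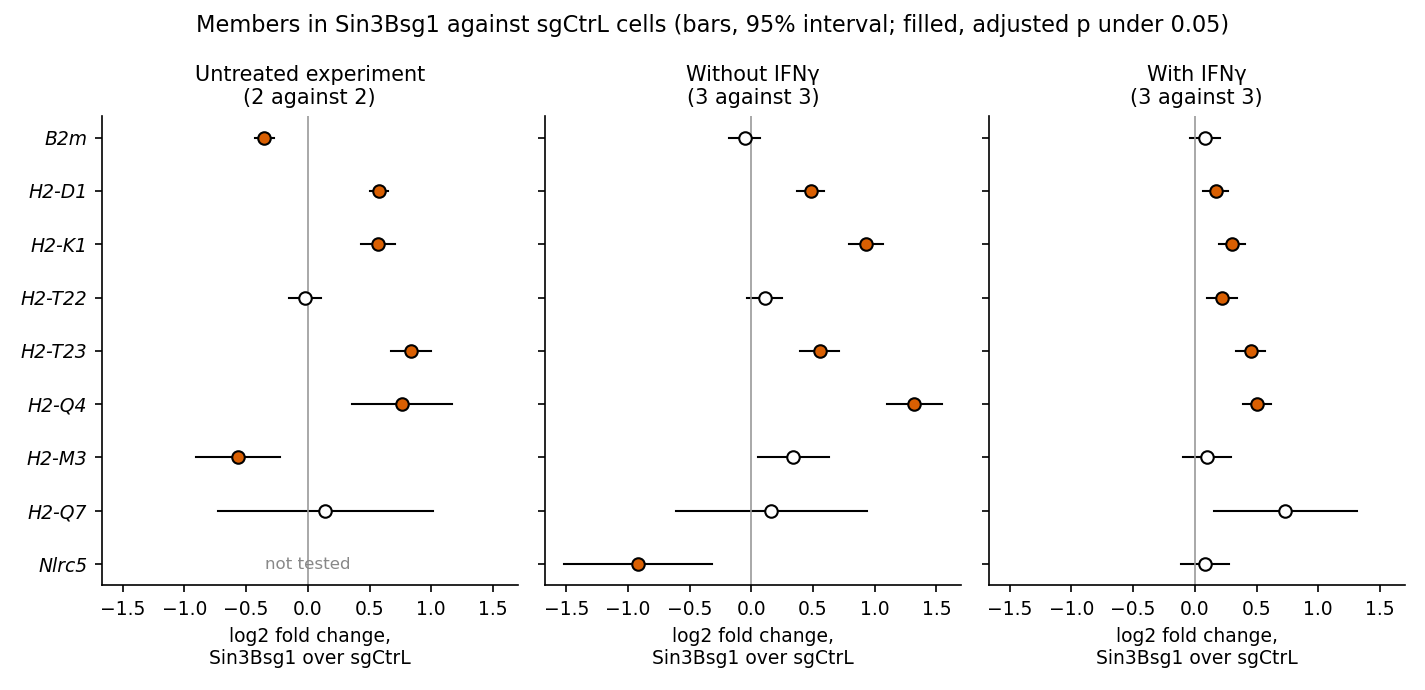
Log2 difference of Sin3Bsg1 against sgCtrL for each member in the untreated experiment, without IFNγ and with IFNγ; points are edgeR estimates, bars 95% intervals, and filled points have an adjusted p under 0.05. H2-K1, H2-D1, H2-Q4 and H2-T23 are filled and above 0 in all 3 panels, B2m is filled in the untreated panel only, and Nlrc5 is marked as not tested there.

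With IFNγ, 5 members were higher in Sin3Bsg1 and none was lower. The count of lower members in edgeR was 0 also at an unadjusted p under 0.05, and it was 0 in DESeq2. H2-T22 joined the 4 genes above, and H2-Q7, H2-M3, B2m and Nlrc5 did not pass. Of the 14913 genes tested, 16.5% were called, 8.62% higher and 7.90% lower, and the median log2 difference was 0.219 over the 9 members and 0.00362 over all genes. The differences of H2-T23 (245, 236 and 243 CPM against 314, 328 and 351 CPM, log2 0.45, SE 0.055, edgeR adjusted p = 2.74e-05) and H2-Q4 (147, 159 and 163 CPM against 214, 224 and 226 CPM, log2 0.50, SE 0.053, edgeR adjusted p = 7.66e-06) were larger than those of the classical chains. H2-K1 was at 565 to 605 CPM in sgCtrL and 689 to 746 CPM in Sin3Bsg1, with a log2 difference of 0.30 (SE 0.051).

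For H2-T22, sgCtrL libraries were at 227, 189 and 199 CPM and Sin3Bsg1 libraries at 229, 244 and 242 CPM. The log2 difference was 0.22 (SE 0.058, edgeR adjusted p = 0.0165), and the highest sgCtrL library, replicate 1, lay just under the lowest Sin3Bsg1 library. The call was lost without replicate 2 of Sin3Bsg1 or without replicate 2 or 3 of sgCtrL (log2 0.17 to 0.20), and it was 0.31 without replicate 1 of sgCtrL. H2-D1 (log2 0.17, edgeR adjusted p = 0.0210) no longer passed without replicate 2 or 3 of Sin3Bsg1 (0.15 in both cases). With only these 2 groups in the fit, neither H2-T22 (0.21, edgeR adjusted p = 0.105) nor H2-D1 (0.16, edgeR adjusted p = 0.0951) passed. H2-Q7 was higher in all Sin3Bsg1 libraries, at 1.59, 1.89 and 1.49 CPM against 3.38, 2.26 and 2.66 CPM, and did not pass (log2 0.73, edgeR adjusted p = 0.0800). It passed narrowly without replicate 3 of sgCtrL without IFNγ (0.74, edgeR adjusted p = 0.0496).

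The light chain and the coactivator did not pass the test between genotypes under IFNγ. B2m was at 1459, 1688 and 1569 CPM in sgCtrL and at 1539, 1672 and 1784 CPM in Sin3Bsg1, with a 95% interval of the log2 difference from -0.040 to 0.21. Nlrc5 was at 81.0, 109 and 113 CPM in sgCtrL and 107, 108 and 106 CPM in Sin3Bsg1, with an interval from -0.11 to 0.28. The lowest Nlrc5 value belonged to replicate 1 of sgCtrL, and without it the log2 difference was -0.04 in place of 0.08.

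Induction by IFNγ was the largest change in these genes. All 9 members tested rose in both genotypes, against 30.2% of genes called in sgCtrL (15.7% higher) and 28.4% in Sin3Bsg1 (16.1% higher). The median log2 change of the 9 members was 3.77 in sgCtrL and 3.64 in Sin3Bsg1, and that of all genes -0.00062 and 0.00519. Every library with IFNγ was above every library without it for each of the 9 (of all genes tested, 20.8% in sgCtrL and 24.3% in Sin3Bsg1).

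In sgCtrL the fold change was 55.9 for H2-Q4, 52.2 for Nlrc5, 41.9 for H2-K1, 19.6 for H2-T23, 13.7 for H2-D1, 11.3 for B2m, 6.69 for H2-T22, 6.61 for H2-M3 and 2.92 for H2-Q7. In Sin3Bsg1 it was 104 for Nlrc5, 31.7 for H2-Q4, 27.0 for H2-K1, 18.3 for H2-T23, 12.4 for B2m, 11.03 for H2-D1, 7.22 for H2-T22, 5.60 for H2-M3 and 4.34 for H2-Q7. The adjusted p of these changes in edgeR ranged from 2.03e-18 to 0.00201 in sgCtrL and from 4.32e-18 to 5.71e-05 in Sin3Bsg1. The classical chains differed from each other, with H2-K1 induced more steeply than H2-D1 from a lower start in both genotypes. The steep Nlrc5 folds rest on 43 counts at most per library without IFNγ, against 1630 to 2886 with it.

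Whether induction itself differed between genotypes was tested by the interaction of genotype and IFNγ, for which only 0.114% of genes (17 of 14913) were called, 0.0805% higher and 0.0335% lower. Of the 10 members 2 were called, both with smaller induction in Sin3Bsg1, H2-K1 (log2 -0.63, SE 0.082, edgeR adjusted p = 0.00931) and H2-Q4 (log2 -0.82, SE 0.12, edgeR adjusted p = 0.0201). H2-K1 no longer passed without replicate 2 of Sin3Bsg1 without IFNγ or replicate 3 of sgCtrL without IFNγ (log2 -0.60 in both, adjusted p up to 0.0812 in edgeR). H2-Q4 no longer passed in 6 of the 12 cases in which 1 library was left out (log2 -0.89 to -0.75 over the 12, adjusted p from 0.00143 to 0.0853 in edgeR), namely without replicate 2 of Sin3Bsg1 with IFNγ, replicates 2 or 3 of Sin3Bsg1 without IFNγ, or any of the 3 sgCtrL libraries without IFNγ. H2-D1 had an interaction of -0.31 (SE 0.069), which did not pass in edgeR (adjusted p = 0.1996) but passed in DESeq2 (-0.32, adjusted p = 0.00206) and with no filter on low counts (-0.31, adjusted p = 0.0142). B2m (0.14), H2-T22 (0.11), H2-T23 (-0.10), H2-M3 (-0.24, SE 0.16) and H2-Q7 (0.57, SE 0.46) did not pass (edgeR adjusted p = 0.973 to 0.984). Nlrc5 had the largest value, 0.9997 (SE 0.30, 95% interval 0.37 to 1.63), which did not pass in edgeR (adjusted p = 0.556) but passed in DESeq2 (0.99, adjusted p = 0.0498) and with no filter on low counts (0.997, adjusted p = 0.00180).

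**Figure D3:**
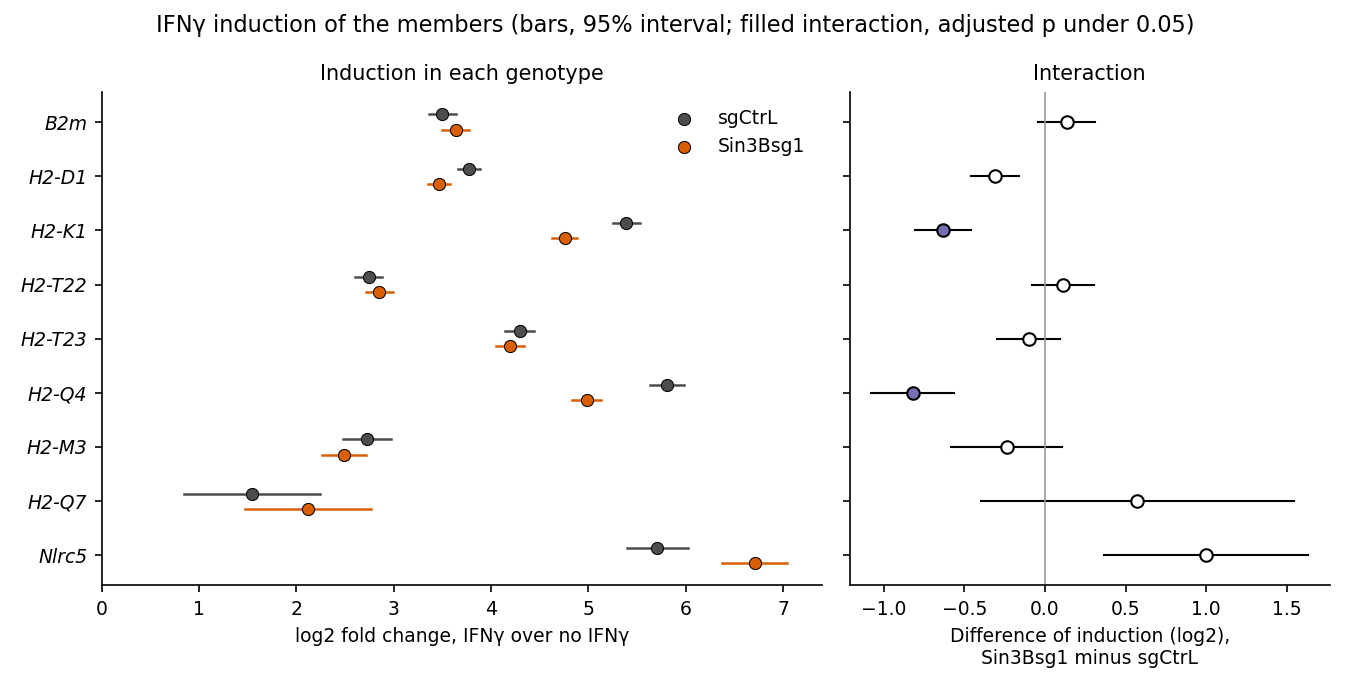
Log2 change with IFNγ in sgCtrL and in Sin3Bsg1, and the interaction, for each member; points are edgeR estimates and bars 95% intervals. The interaction lies below 0 for H2-K1 (-0.63) and H2-Q4 (-0.82), near 0 for H2-T22, H2-T23 and B2m, and above 0 for Nlrc5 (0.9997), whose interval is among the widest.

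The smaller relative induction of H2-K1 and H2-Q4 did not mean a smaller gain in transcripts. In CPM, H2-K1 gained 575 ± 12.2 (SE, n = 3 against 3) in sgCtrL and 699 ± 18.7 in Sin3Bsg1, 124 ± 22.3 CPM more. H2-Q4 gained 154 ± 4.86 in sgCtrL and 214 ± 3.72 in Sin3Bsg1, 60.8 ± 6.12 CPM more. H2-T23 gained 83.7 ± 11.2 CPM more in Sin3Bsg1 than in sgCtrL, H2-D1 90.5 ± 31.9 and H2-T22 31.0 ± 12.1 CPM more. The gains of B2m and Nlrc5 differed by about 1 SE or less (98.0 ± 97.1 and 7.06 ± 10.09 CPM). These gains are on the linear scale and were not tested across all genes.

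Reads divided among the 8 heavy chains stay together in their sum, although part of the sharing is with H2 genes outside it, such as H2-Q10 and H2-T10. The sum was 160 CPM in sgCtrL and 224 CPM in Sin3Bsg1 in the untreated experiment, a log2 difference of 0.48 (SE 0.027, edgeR adjusted p = 1.07e-09). It was 134 against 187 CPM without IFNγ (0.49, SE 0.043, adjusted p = 1.08e-06 in edgeR) and 2164 against 2610 CPM with IFNγ (0.27, SE 0.042, adjusted p = 0.000275 in edgeR). The sum was induced 16.2-fold in sgCtrL and 13.9-fold in Sin3Bsg1, and the interaction of -0.22 did not pass in edgeR (adjusted p = 0.463), although it did in DESeq2 (-0.23, adjusted p = 0.0429). Counting H2-K1 and H2-D1 together gave an interaction of -0.35 (SE 0.066, edgeR adjusted p = 0.0654). A sum over the 21 listed H2 class I genes that are in the tables, H2-Q10, H2-T10 and H2-Q1 included, differed between genotypes by a log2 of 0.48 in the untreated experiment, 0.48 without IFNγ and 0.27 with IFNγ (edgeR adjusted p = 9.93e-10, 1.2e-06 and 0.000275). H2-K2, H2-T9 and H2-T15, which also share windows with members, were not in this sum.

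The heavy chains and the light chain did not keep one proportion. Per length, the summed heavy chain TPM divided by the B2m TPM was 0.714 and 0.718 in sgCtrL and 1.25 and 1.30 in Sin3Bsg1 in the untreated experiment. It was 0.489 ± 0.00826 against 0.713 ± 0.0202 (SD, n = 3) without IFNγ and 0.710 ± 0.0535 against 0.809 ± 0.0272 with IFNγ. The ratio was higher in Sin3Bsg1 in each setting and the libraries never overlapped, but a two-sided exact permutation test of 3 against 3 libraries cannot go below p = 0.1, the value found with and without IFNγ, nor of 2 against 2 below p = 0.333, the value found in the untreated experiment. With IFNγ the ratio rose from 0.489 to 0.710 in sgCtrL and from 0.713 to 0.809 in Sin3Bsg1, also without overlap (exact permutation p = 0.1 for each, two-sided).

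Within the heavy chain pool, the shares of H2-K1 and H2-Q4 were larger with IFNγ and those of H2-T22 and H2-D1 smaller, in both genotypes. H2-K1 made up 11.003% of the summed heavy chain TPM in sgCtrL without IFNγ and 28.2% with IFNγ, and 14.9% and 28.7% in Sin3Bsg1. H2-T22 went from 21.996% to 9.001% in sgCtrL and from 16.9% to 8.66% in Sin3Bsg1. H2-D1 stayed the largest part, at 49.8% and 41.6% in sgCtrL and 49.4% and 38.7% in Sin3Bsg1. H2-Q4 rose from 1.97% to 6.75% in sgCtrL and from 3.52% to 7.91% in Sin3Bsg1.

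**Figure D4:**
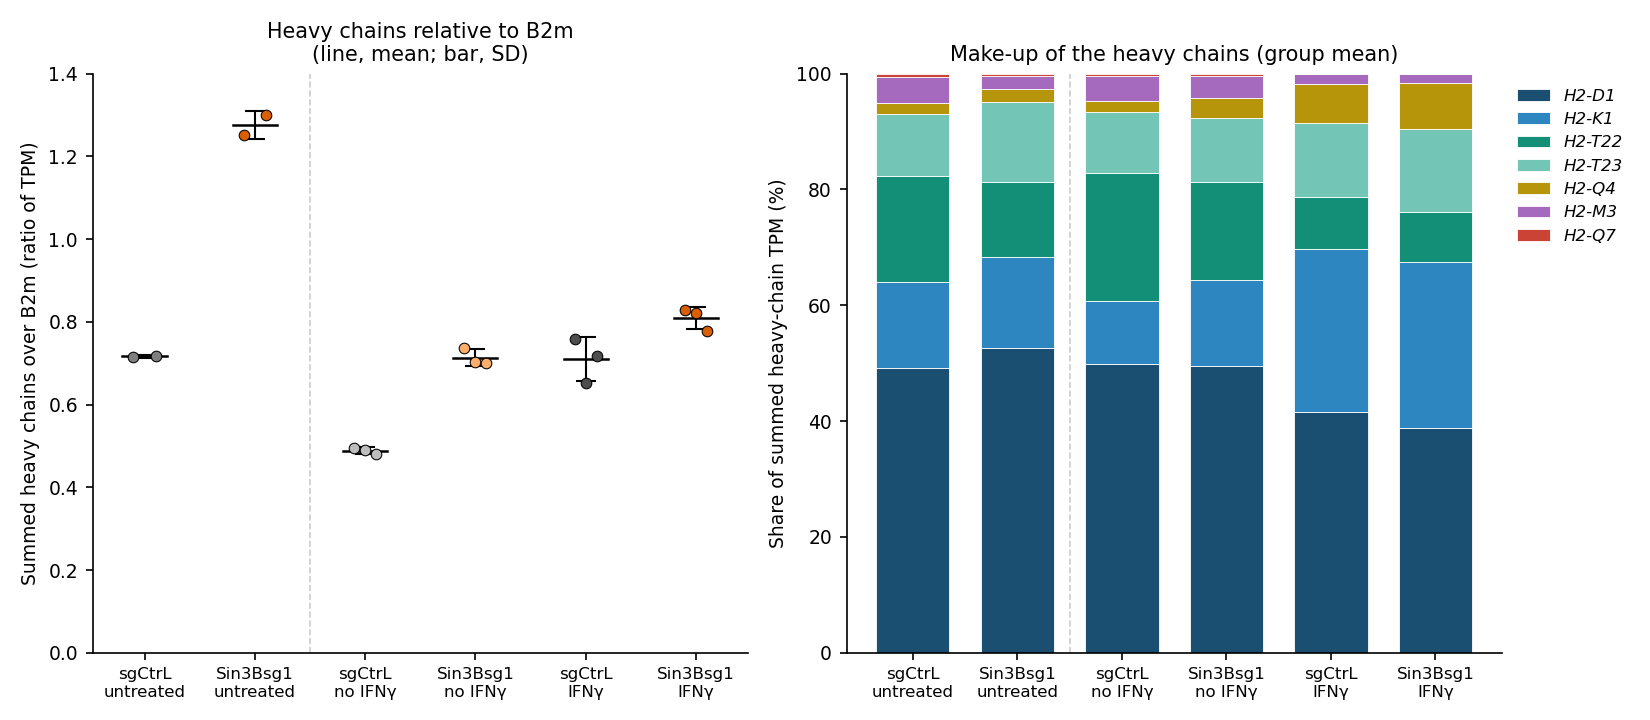
Left, ratio of summed heavy chain TPM to B2m TPM in each library (points) with the group mean and SD (bars); right, mean share of each heavy chain in the summed heavy chain TPM per group, as stacked bars that add to the whole. The ratio is 0.489 in sgCtrL without IFNγ, the lowest of the 4 groups of the IFNγ experiment, and the H2-K1 share grows from 11.003% to 28.2% in sgCtrL with IFNγ.

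Genes that supply and load peptides, and the other regulators of class I genes, give the setting of these changes. Of 13 genes of peptide supply and loading, 12 rose with IFNγ in each genotype, among them the immunoproteasome subunit Psmb9 (log2 9.52 in sgCtrL and 8.09 in Sin3Bsg1) and the peptide transporter subunit Tap1 (7.55 and 6.75). Between genotypes, 5 of the 13 were higher in Sin3Bsg1 without IFNγ, including Psmb9 (log2 1.53, SE 0.37), Tap1 (0.83, SE 0.13) and Tap2 (0.70, SE 0.073). With IFNγ 3 were higher, of which Tap2 (0.31) was the largest. In the untreated experiment 1 was higher (Psme2, 0.15, which did not pass in DESeq2) and 3 were lower (Tapbp -0.11, Canx -0.07, Calr -0.06). Tap1 overlapped between the genotypes there, at 1.91 and 2.25 CPM in sgCtrL and 2.12 and 2.43 CPM in Sin3Bsg1. So did Tap2 (9.22 to 11.7 against 9.04 to 9.93 CPM) and the scarce Psmb9 (0.442 to 0.470 against 0.453 to 0.498 CPM). Of 13 partners and regulators of Nlrc5 and the class I genes, edgeR called 0 between genotypes without IFNγ (4 at an unadjusted p under 0.05, 0 in DESeq2) and 0 with IFNγ (1 at an unadjusted p under 0.05, 1 lower in DESeq2). In the untreated experiment 2 were lower in Sin3Bsg1, of which Nfkb1 had a log2 difference of -0.12. With IFNγ, Irf1 rose in both genotypes (log2 3.51 in sgCtrL and 3.57 in Sin3Bsg1).

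Of 17 other H2 class I genes listed, 3 had enough counts to test. All 3 were called higher with IFNγ in both genotypes, H2-T10 by log2 3.12 and 2.96 and H2-T24 by 0.87 and 1.05. H2-Q10 was scarce without IFNγ, at a mean of 0.0714 CPM in sgCtrL and 0.0578 CPM in Sin3Bsg1, with a lowest library of 0 in each. The size of its rise (log2 2.60, SE 0.81, and 3.81, SE 0.74) is therefore uncertain. Between genotypes edgeR called 0 of the 3 genes in any of the 3 settings, and so did DESeq2. At an unadjusted p under 0.05, edgeR gave 1 for the untreated cells and 0 for either other setting. Among 6 other heavy chains that pair with B2m, 5 were tested. Fcgrt, the neonatal Fc receptor chain, fell with IFNγ by 0.82 in sgCtrL and by 0.81 in Sin3Bsg1 on the log2 scale, opposite to the members. Between genotypes the called genes of this list were lower in Sin3Bsg1, namely Fcgrt in the untreated experiment (log2 -1.07) and Cd1d1 (-1.54) and Azgp1 (-0.94) with IFNγ.

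Markers of cell state moved with genotype beside these genes. The summed level of the 6 epithelial markers was 4600 to 4625 CPM in sgCtrL and 6195 to 6253 in Sin3Bsg1 in the untreated experiment. It was 2990 to 3028 against 3215 to 3317 without IFNγ, and 3165 to 3692 against 4181 to 4433 with IFNγ. Krt8, Krt18 and Krt19 made up most of it (2203, 1111 and 1113 CPM in untreated sgCtrL). In these 3 settings edgeR called 6, 3 and 5 of the 6 higher, against 15.1%, 7.89% and 8.62% of all genes tested. The 6 fibroblast markers summed to 99.8 to 100.1 CPM in sgCtrL and 30.1 to 33.2 CPM in Sin3Bsg1 in the untreated experiment, nearly all of it Pdgfra and Pdgfrb. In the IFNγ experiment they summed to 261 to 268 against 223 to 234 CPM without IFNγ and 184 to 186 against 160 to 172 CPM with it. There the sum hid opposite differences. Pdgfra was lower in Sin3Bsg1 (log2 -0.26 without and -0.21 with IFNγ), whereas Pdgfrb was higher (0.19 and 0.27). Without IFNγ, Pdgfrb did not pass in DESeq2 (adjusted p = 0.0617). The other 4 markers were at or under 3 counts in each of these groups. The part of these shifts in the class I differences was not tested.

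Likeness of pattern was measured over the 12 libraries of the IFNγ experiment as the root mean square difference of centred log2 values among 10495 genes. Before the log2, 1 was added to each CPM. This compresses the change of Nlrc5, which without IFNγ stood at 1.95 CPM in sgCtrL and 1.02 CPM in Sin3Bsg1. The genes closest to H2-K1 outside the members were Irgm1 (0.272), Serpina3f (0.313) and Ifit3 (0.385), all farther than the member H2-Q4 (0.138). For B2m they were Irf1 (0.0649), Parp9 (0.101) and Stat2 (0.117), all nearer than the closest member, H2-D1 (0.199). For Nlrc5 they were Apol9a (0.204), Gbp8 (0.215) and Rtp4 (0.268), while its closest member was H2-K1 (0.565). B2m thus ran nearer to Irf1 than to any heavy chain, and H2-K1 nearer to H2-Q4 than to any gene outside the members. These are descriptions over libraries that share the IFNγ contrast.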

How the data were processed

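Per the labels and the study's methods, the authors sequenced RNA from edited KPC1199 cells, and the deposited values are estimated counts per gene. The submitters' processing notes list fastp, HISAT2, StringTie, DESeq2 and mm39, whereas the methods describe featureCounts on uniquely mapped reads and mm9; versions, annotation and strand setting are not given in the sources used here. Columns headed lacz3 were taken as sgCtrL, the only other guide in that table. From the table of the untreated experiment, 324 assembled loci (0.615 to 0.677% of counts) were left out, as were the authors' mean columns in both tables. Estimated counts were rounded to whole numbers. CPM and TPM (from the deposited lengths) were computed per library.

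The tables were fitted separately with edgeR 4.0.16 (R 4.3.3; TMM, filterByExpr, quasi-likelihood test, two-sided, Benjamini-Hochberg over all genes tested, threshold 0.05), the IFNγ table with 1 mean per group over 12 libraries. The edgeR fit was also run on simulated counts that gave all genes a common spread and held no outlying library or shared reads. That run says nothing on those points. Alternatives were DESeq2 1.42.0, median-ratio factors, no filter, the replicate number as a block, only the 2 groups compared, pooled paralogs and leaving out each library. Ratios were compared by exact permutation tests. Shared sequence was counted in windows of 100 and of 150 bases. Python 3.11.15, pandas 2.3.3, numpy 2.4.6 and matplotlib 3.10.9 were used.

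Every member tested was named in each edgeR comparison, whereas the linear gains name only some. From each other list at most 4 genes past the threshold with the largest change were named per comparison. Genes given as a contrast or as part of a sum came besides these. For H2-K1, B2m and Nlrc5 the 3 genes of at least 5 CPM with the most similar pattern were named. Tap1, Tap2 and Psmb9 in the untreated experiment were named after their values were seen. Some listed genes are not reported here. The members and lists were chosen with earlier results of these data known. Intervals cover the spread between libraries, and depth limits Nlrc5, H2-Q6 and H2-Q7.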

Additional observations from a re-analysis of the deposited data

Results flagged for a closer look

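Induction by IFNγ differed between the genotypes for 2 members by the interaction test. For H2-K1 it was smaller in Sin3Bsg1 by a log2 difference of -0.63 (SE 0.082, edgeR adjusted p = 0.00931), and for H2-Q4 by -0.82 (SE 0.12, edgeR adjusted p = 0.0201). Both genes started higher in all 3 Sin3Bsg1 libraries without IFNγ and ended higher in all 3 with IFNγ. The cause was not tested.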

How the results depend on the processing

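Of 843 alternative values for 53 member results, 811 kept their side of the threshold, 26 no longer passed and 6 newly passed. Changes of direction that involved a passing value numbered 0. Some values that passed neither way did change direction when 1 library was left out. Examples are H2-Q7 without IFNγ (0.16, down to -0.15) and Nlrc5 with IFNγ (0.08, down to -0.04). With only the 2 groups compared in the fit, 3996 genes were called without IFNγ in place of 2568, and 1500 with IFNγ in place of 2464, with 3 members higher in place of 5 (H2-D1 and H2-T22 lost). For the interaction, DESeq2 called 32 genes and no filter on low counts 110, in place of 17, and each called 1 member higher (Nlrc5) where none was and 3 lower (H2-D1 added) in place of 2; the summed heavy chains had -0.23 in DESeq2 (adjusted p = 0.0429). Leaving out 1 library gave 1 to 33 genes for the interaction (33 without replicate 1 of sgCtrL with IFNγ) and 0 to 2 members lower, 1 to 2 members lower in the untreated experiment, 0 to 1 lower without IFNγ and 3 to 6 higher with IFNγ. In CPM in place of TPM the ratio of heavy chains to B2m is on another scale; the TPM values are 0.716 and 1.28 in the untreated experiment, 0.489 and 0.713 without IFNγ, and 0.710 and 0.809 with IFNγ, for sgCtrL and Sin3Bsg1. The causes were not tested. Whether replicate numbers pair the libraries was not settled. In the IFNγ experiment, correlations of same-numbered deviations ran from -0.162 to 0.256, and of differently numbered ones from -0.278 to 0.210. Between the 2 groups with IFNγ the same-numbered values were 0.208, 0.256 and -0.0209. In the untreated experiment 2 libraries per group fix all these correlations at one size (-0.0136 for same numbers, 0.0136 for different), so they cannot decide. With the replicate block 4675 genes were called in the untreated experiment, 2511 without IFNγ and 2389 with it. For IFNγ 4400 were called in sgCtrL and 4207 in Sin3Bsg1, and for the interaction 13. The block changed no member's call. With 1 library left in an untreated group, its spread was assumed to be that of the other group. Pooling H2-Q6 with H2-Q7 and H2-T22 with H2-T10 changed no call; H2-Q8, H2-Q9 and H2-T9 were not analysed here. H2-Q6 and the untreated Nlrc5 were too shallow to test.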
